A study of Mus musculus with 12 samples.

Results

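The 47 genes described here encode the route from blood glucose and glycogen to pyruvate, the passage of pyruvate into mitochondria, and the citric acid cycle. They were taken by name from the deposited gene table, which holds 55679 genes, and all 47 were found in it. It marks 46 of them as detected and Pfkfb1 as not detected. The names cover 5 sugar and lactate transporters, 12 genes from hexokinase to aldolase, 8 from triosephosphate isomerase to pyruvate kinase, 9 for lactate dehydrogenase and the entry of pyruvate, 10 grouped under the citric acid cycle and 3 of glycogen turnover. The citric acid cycle group includes Mdh1, whose enzyme is cytosolic. No measured value entered that choice, although the list was drawn up with earlier results of these libraries known.

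Glycolysis splits glucose into pyruvate in the cytosol, and pyruvate is either reduced to lactate or carried into mitochondria, where pyruvate dehydrogenase feeds it to the citric acid cycle. Most steps before pyruvate can be run by isoenzymes, which are products of separate genes, or of alternative exons of 1 gene, that catalyse the same reaction with different kinetics and control. Striated muscle is known for its own set (the muscle phosphofructokinase, phosphoglycerate mutase, enolase and glycogen phosphorylase, and the insulin-responsive glucose transporter), and heart muscle for a dense population of mitochondria that oxidize fatty acids, glucose and lactate.

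RNA came from the whole heart and whole lung of the same 6 male mice of strain 129S6/SvEvTac, aged 9 to 13 weeks, of which 3 were wild type (WT) and 3 were Adam19 knockouts (KO). KO mice carried 2 copies of an Adam19 allele in which a tdTomato construct took the place of exons 6 and 7, and WT mice carried none. Each replicate is a separate mouse, and a replicate number stands for 1 animal of its genotype in heart and lung alike. The mouse identifiers of WT and KO share no prefix, and the labels do not say what a prefix stands for. Values are the normalized abundance of a gene on a log2 scale as deposited, so a difference of 1 is a doubling.

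Estimated counts summed to 17674800 to 35862900 in each library, and 2.18 to 33.7% of them in the lungs and 2.70 to 11.8% in the hearts belonged to the noncoding RNA gene Rn7s1. Adam19 checked the genotypes, with 9.17, 9.25 and 10.27 in WT hearts and 6.67, 6.01 and 6.56 in KO hearts, and 9.14, 9.41 and 9.12 in WT lungs and 4.44, 3.21 and 3.50 in KO lungs. The labelled organs carried their markers: the summed level of 8 heart muscle markers was 20.8 to 21.1 in the hearts and 13.6 to 14.9 in the lungs, and that of 8 lung epithelium markers was 18.9 to 19.2 in the lungs and 6.52 to 10.7 in the hearts. None of the 8 heart muscle markers was at 0 in a lung. A list of 6 skeletal muscle markers summed to 11.0 in lung WT replicate 2 and to 5.88 to 6.54 in the other lungs. In whole organs, fewer cells of a type and less RNA per cell cannot be told apart.

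Exon choice is where the sequence itself separates the organs, so the alternative exons of Pkm and Idh3b are given first. The leading transcript of each gene was not the same in both organs. Pkm was to be named with its values, but that choice was made with earlier results of these libraries known. Idh3b was picked after its values were seen. Pfkfb1 also changed, with a transcript that held 60.1% of its counts in the hearts and 1.61% in the lungs. Pkm encodes pyruvate kinase, the last step of glycolysis, and its transcripts hold either the exon of the M1 form, named for muscle, or that of the M2 form. Both exons lie on the forward strand of chromosome 9 (GRCm39), are wholly coding, have 167 nucleotides and are exon 9 of their own transcript, M1 at chr9:59582312-59582478 and M2 at chr9:59582851-59583017. They have the same base at 103 positions (61.7%), and the 64 at which they differ are in capitals.
Pkm M1 exon: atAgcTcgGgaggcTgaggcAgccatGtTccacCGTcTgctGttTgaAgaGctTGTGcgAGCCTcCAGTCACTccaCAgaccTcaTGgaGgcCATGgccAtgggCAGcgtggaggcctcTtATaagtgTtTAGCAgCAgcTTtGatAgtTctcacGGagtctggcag
Pkm M2 exon: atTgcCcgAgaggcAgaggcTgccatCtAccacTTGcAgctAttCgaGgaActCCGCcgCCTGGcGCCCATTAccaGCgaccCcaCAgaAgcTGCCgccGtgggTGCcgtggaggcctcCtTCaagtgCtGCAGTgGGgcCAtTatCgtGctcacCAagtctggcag

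Idh3b encodes a regulatory subunit of the NAD-dependent isocitrate dehydrogenase of the citric acid cycle, and its transcripts end in 1 of 2 alternative last exons, each of them exon 12 of its transcript, on the reverse strand of chromosome 2. The names heart-type and lung-type were given here after the values were seen, and only the coding parts are shown, at chr2:130121286-130121357 (72 nucleotides) and chr2:130121563-130121646 (84 nucleotides). No base is marked, since the 2 ends have different lengths and were not aligned.
Idh3b heart-type end: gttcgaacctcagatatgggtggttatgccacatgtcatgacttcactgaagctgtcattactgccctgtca
Idh3b lung-type end: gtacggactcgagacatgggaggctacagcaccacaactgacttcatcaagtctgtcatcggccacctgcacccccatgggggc

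Pyruvate kinase mRNA was mostly of the M1 form in hearts and mostly of the M2 form in lungs. Per kilobase of transcript, M1 made up 63.8%, 64.2% and 62.9% of M1 plus M2 in hearts of WT replicates 1, 2 and 3 and 57.6%, 60.7% and 61.7% in hearts of KO replicates 1, 2 and 3. In the lungs the M1 share was 16%, 16.4% and 21.3% in WT and 14.6%, 15% and 31.4% in KO. KO replicate 3 had the highest share among the lungs, yet all 6 lungs lay below all 6 hearts. The means were 61.8% ± 2.47 (SD, n = 6) and 19.1% ± 6.5 (SD, n = 6), a difference of −42.7 percentage points (exact permutation test, two-sided, p = 0.00216, the smallest that 6 against 6 libraries can give). With each lung paired to the heart of its mouse, an exact sign-flip permutation test gave p = 0.03125, the smallest for 6 mice. Pkm was chosen with earlier results of these libraries known, so both p-values stand as a description.

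Both forms were lower in the lung, M1 by far the more. The M1 transcript (ENSMUST00000163694.4) had a lowest, median and highest scaled level of 13.81, 14.19 and 14.48 in the hearts and 9.45, 9.72 and 10.36 in the lungs, and its lung minus heart difference was −4.42 (SE 0.16, adjusted p = 6.42e-09). The M2 transcript (ENSMUST00000034834.16) had 13.08, 13.64 and 13.91 in the hearts and 11.59, 12.04 and 12.36 in the lungs, a difference of −1.59 (SE 0.16, adjusted p = 1.04e-05). Across all 43716 transcripts tested, 33.5% were past the thresholds between the organs. WT and KO shares of M1 overlapped in the lung (exact permutation p = 1) but not in the heart, where KO lay below WT (exact permutation p = 0.1, the smallest for 3 against 3).

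For Idh3b the leading end also differed between the organs. The heart-type end made up 96.2%, 97.3% and 97.8% in WT hearts and 94.0%, 97% and 96.7% in KO hearts, against 28.8%, 28.9% and 21.7% in WT lungs and 27.1%, 24.3% and 23.0% in KO lungs. This share was picked out after its values were seen, so the difference of −70.9 percentage points stands as a description. The heart-type transcript differed by −5.78 between lung and heart, and the lung-type transcript by 0.62 (SE 0.19, adjusted p = 0.0205), with 8.88 to 10.12 in the hearts and 9.75 to 10.22 in the lungs. The organs overlapped for the lung-type transcript, and its call was lost without WT replicate 3 (0.52, adjusted p = 0.0896), KO replicate 2 (0.45, adjusted p = 0.0828) or KO replicate 3 (0.65, adjusted p = 0.0575), and without scaling between libraries (0.87, adjusted p = 0.0552). Of all 47 members, 7 had a transcript whose share of the gene's counts moved by more than 20 percentage points between the organs, and for 5 of these (Idh3b, Pfkfb1, Pkm, Eno1 and Pdk1) the libraries of the organs did not overlap. Over 17461 genes tested the corresponding shares were 17.7% and 6.15%.

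**Figure D1:**
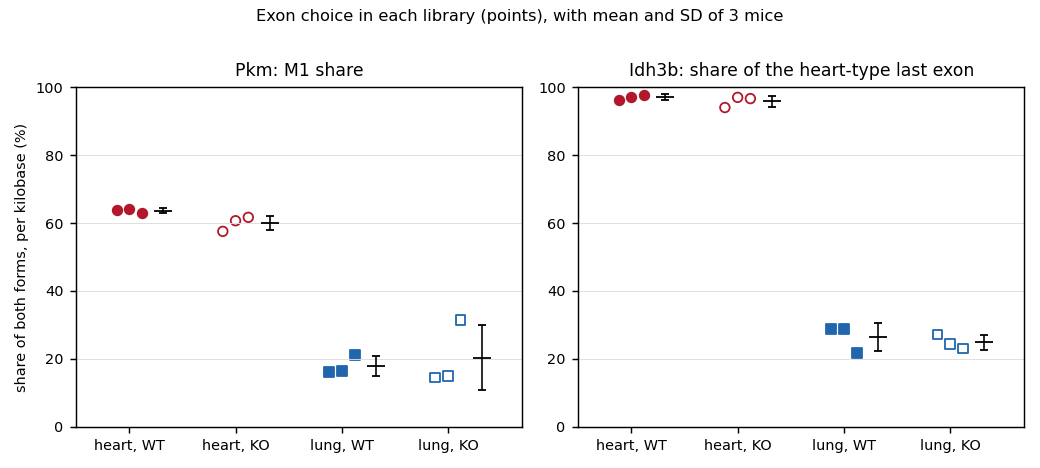
The share of the Pkm M1 form in M1 plus M2 (left) and of the Idh3b heart-type end in both forms (right), in percent per kilobase of transcript, with 1 point for each library and the mean and SD of 3 mice beside them. In both panels all 6 hearts lie above all 6 lungs, and lung KO replicate 3 stands at 31.4% in the left panel.

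Measured per gene, the pathway as a whole was far more abundant in the heart. Of the 47 members, 38 were higher in the heart and 4 were higher in the lung past the thresholds (limma, Benjamini-Hochberg adjusted p under 0.05, a fold of at least 1.5 and a group mean of at least 6), and 5 passed in neither direction. Of all 17666 genes tested, 51.3% were past the same thresholds, 21.2% higher in the heart and 30.1% higher in the lung. The median lung minus heart difference was −3.21 over the members and 0.31 over all genes. Heart and lung libraries did not overlap for 43 of the 47 members, and for 57.4% of all genes.

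**Figure D2:**
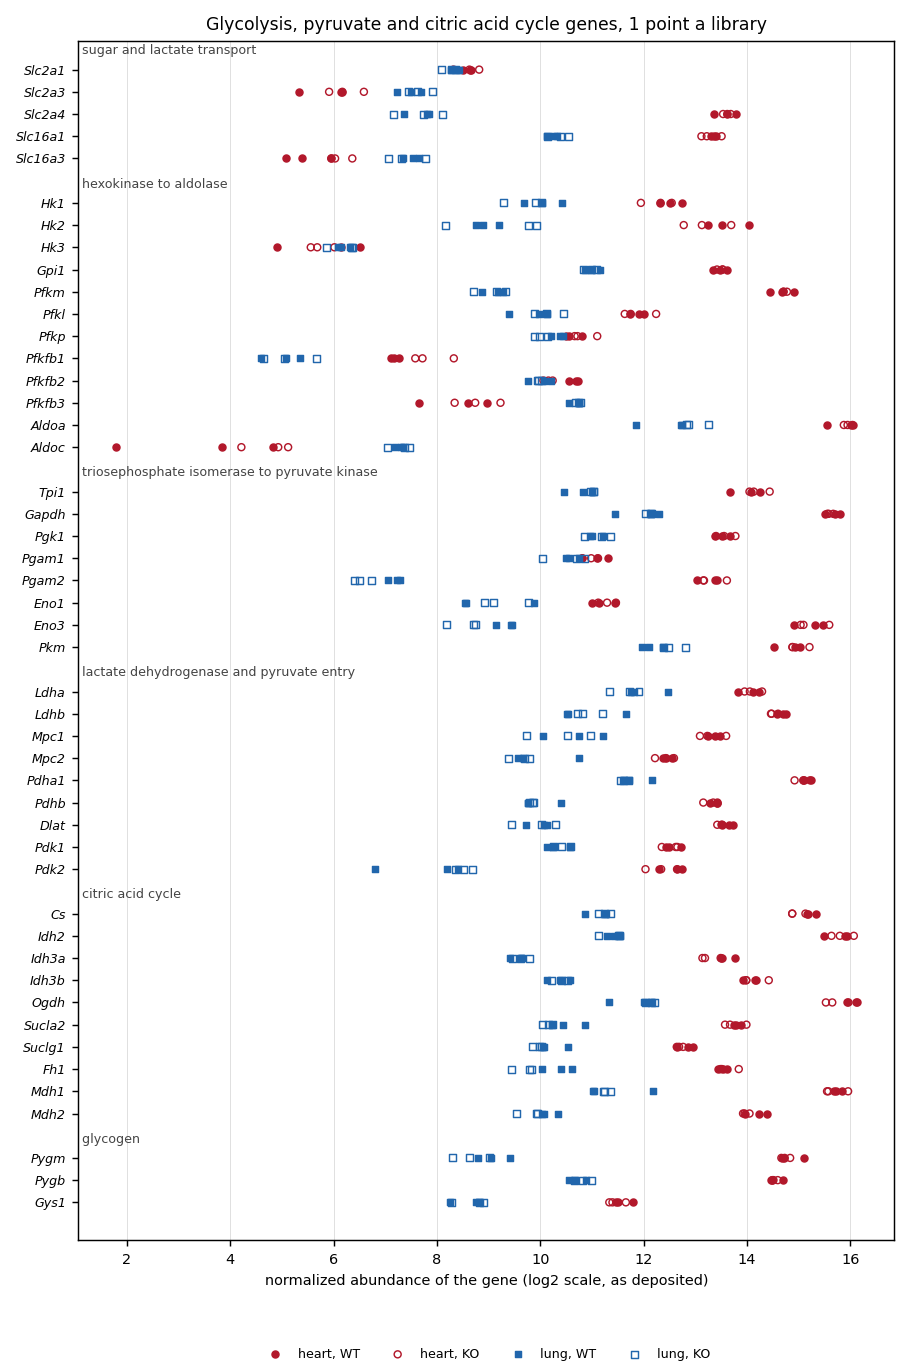
Normalized abundance (log2, as deposited) of the 47 genes by role, with 1 point for each of the 12 libraries, circles for hearts, squares for lungs, filled for WT and open for KO. Most genes have hearts on the right and lungs well to the left, while Slc2a3, Slc16a3, Pfkfb3 and Aldoc have the reverse order.

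Among the transporters, which let glucose, lactate and pyruvate cross the cell membrane, both directions occurred. Slc2a4, the insulin-responsive glucose transporter GLUT4, had a lowest, median and highest value of 13.36, 13.62 and 13.78 in the hearts and 7.16, 7.78 and 8.11 in the lungs. Its difference was −5.93 (SE 0.15, adjusted p = 4.15e-12), which leaves 1.65% of the heart's level in the lung. Slc2a1, the widely expressed GLUT1, was nearly level, at 8.32, 8.63 and 8.82 in the hearts and 8.10, 8.32 and 8.43 in the lungs, and its difference of −0.29 (SE 0.11, adjusted p = 0.0284) was under the fold threshold. Slc2a3, the high-affinity GLUT3 known from neurons and leukocytes, was higher in the lungs, with 5.33, 6.15 and 6.59 in the hearts and 7.23, 7.56 and 7.92 in the lungs, a difference of 1.52 (SE 0.19, adjusted p = 1.04e-05) seen in all 6 mice.

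The monocarboxylate transporters split in the same way. Slc16a1 (MCT1), which imports and exports lactate, had 13.12, 13.34 and 13.51 in the hearts and 10.12, 10.30 and 10.54 in the lungs, a difference of −3.02 (SE 0.10, adjusted p = 2.65e-11). Slc16a3 (MCT4), an exporter known from strongly glycolytic cells, had 5.08, 5.95 and 6.36 in the hearts and 7.06, 7.43 and 7.77 in the lungs, a difference of 1.65 (SE 0.19, adjusted p = 4.04e-06). The organs did not overlap for either, and they lay in opposite orders.

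In the first steps of glycolysis, 7 of 12 genes were higher in the heart and 2 in the lung. Of the hexokinases, which trap glucose by phosphorylating it, Hk2 had 12.78, 13.38 and 14.04 in the hearts and 8.16, 9.04 and 9.92 in the lungs, a difference of −4.29 (SE 0.28, adjusted p = 1.66e-08), and Hk1 had 11.95, 12.42 and 12.75 and 9.29, 9.97 and 10.42, a difference of −2.50 (SE 0.17, adjusted p = 1.81e-08). Hk3, a form known from myeloid cells, overlapped between the organs at 4.90, 5.85 and 6.52 and 5.87, 6.23 and 6.37, with a difference of 0.39 (SE 0.26, adjusted p = 0.182). Gpi1, the glucose-6-phosphate isomerase, differed by −2.49 (SE 0.09, adjusted p = 6.38e-11).

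Phosphofructokinase commits sugar to glycolysis, and its 3 subunits differed by very unequal amounts. Pfkm, the muscle subunit, had 14.44, 14.70 and 14.92 in the hearts and 8.70, 9.17 and 9.33 in the lungs, the largest difference of this group at −5.61 (SE 0.13, adjusted p = 1.41e-12). Pfkl, the liver subunit, had 11.63, 11.83 and 12.24 and 9.40, 10.04 and 10.45, a difference of −1.88 (SE 0.15, adjusted p = 1.27e-07). Pfkp, the platelet subunit, had 10.49, 10.69 and 11.10 and 9.89, 10.17 and 10.43, and its difference of −0.55 (SE 0.10, adjusted p = 0.000337) fell short of the fold threshold as deposited but passed it under each of 3 other scalings or fits and without KO replicate 1 (−0.61 to −0.77).

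The bifunctional enzymes that make and break fructose 2,6-bisphosphate, the activator of phosphofructokinase, went different ways. Pfkfb1 had 7.10, 7.42 and 8.33 in the hearts and 4.59, 5.07 and 5.66 in the lungs, with a difference of −2.46 (SE 0.22, adjusted p = 3.09e-07), and Pfkfb2, known as the heart form, overlapped between the organs at 10.06, 10.40 and 10.73 and 9.77, 9.99 and 10.21, with a difference of −0.41 (SE 0.09, adjusted p = 0.00119). Pfkfb3, the form with the highest kinase activity, was higher in all 6 lungs, at 7.66, 8.67 and 9.23 in the hearts and 10.56, 10.74 and 10.77 in the lungs, a difference of 2.11 (SE 0.20, adjusted p = 6.82e-07). Under median centring Pfkfb2 also passed the fold threshold (−0.63).

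Aldolase splits the 6-carbon sugar, and its main gene and its minor gene lay on opposite sides. Aldoa had 15.55, 15.98 and 16.04 in the hearts and 11.84, 12.78 and 13.25 in the lungs, a difference of −3.21 (SE 0.17, adjusted p = 2.3e-09). Aldoc, known from brain, was low in the hearts at 1.78, 4.52 and 5.12 and higher in all 6 lungs at 7.04, 7.32 and 7.47, a difference of 3.17 (SE 0.41, adjusted p = 1.12e-05). Its lowest heart value was in WT replicate 3, and without that mouse the difference was 2.73.

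Of the 8 genes from triosephosphate isomerase to pyruvate kinase, 7 were higher in the heart and Pgam1 was not called. Pgam2, the muscle phosphoglycerate mutase, had the largest difference of all 47 members, with 13.03, 13.28 and 13.61 in the hearts and 6.40, 6.90 and 7.29 in the lungs, or −6.43 (SE 0.12, adjusted p = 2.77e-13), an 86.1-fold difference. Pgam1, which catalyses the same step in most other tissues, had 10.80, 11.04 and 11.31 and 10.05, 10.62 and 10.85, a difference of −0.46 (SE 0.14, adjusted p = 0.0101) that was lower in the lung in 5 of 6 mice and passed the fold threshold under 3 other scalings or fits (−0.64 to −0.67).

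Enolase, the step after phosphoglycerate mutase, repeated the contrast between a muscle gene and a general one. Eno3, the muscle enolase, had 14.92, 15.20 and 15.59 in the hearts and 8.19, 8.94 and 9.46 in the lungs, a difference of −6.29 (SE 0.15, adjusted p = 1.78e-12), or 78.2-fold. Eno1 had 11.01, 11.21 and 11.46 and 8.55, 9.01 and 9.88, a difference of −2.12 (SE 0.23, adjusted p = 1.96e-06). Eno1 shares 99.5% of 1736 aligned nucleotides with Eno1b, a gene with its own row at 9.73 to 10.8 in the hearts and 9.18 to 10.6 in the lungs, so reads of the pair may be split between them, and with all copies summed Eno1 differed by −1.40 (SE 0.15).

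The remaining genes of this stretch have 1 main gene for the step. Tpi1 (triosephosphate isomerase) differed by −3.22 (SE 0.13, adjusted p = 1.48e-10), Gapdh (glyceraldehyde-3-phosphate dehydrogenase) by −3.60 (SE 0.14, adjusted p = 1.12e-10), Pgk1 (phosphoglycerate kinase) by −2.46 (SE 0.11, adjusted p = 5e-10) and Pkm by −2.55 (SE 0.13, adjusted p = 1.65e-09). Gapdh, often used as a reference gene, had 15.51, 15.62 and 15.79 in the hearts and 11.45, 12.13 and 12.30 in the lungs. It has 67 pseudogene copies with a value above 0, of which Gm12671, identical over 1002 nucleotides, reached 33.1% of the Gapdh level in a library, and with all of them added the difference was −3.65 (SE 0.13).

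The promoter of Slc16a3, 1 of the 4 members higher in the lung, is shown for a motif that is frequent among the members. For each start site RefSeq gives the 250 bases before it (GRCm38.p6), and 44 of the 47 members have such an entry, with 69 promoters between them. Slc2a3, Slc2a4 and Idh3a have none. ACGTG, the core letters of the hypoxia response element, is in 40.6% of these 69 promoters, from 19 genes, and in 16.6% of all 32851 promoters, read on both strands. Slc16a3 holds it at 2 places, in capitals.
Slc16a3 promoter, chr11:120948817-120949066, forward strand: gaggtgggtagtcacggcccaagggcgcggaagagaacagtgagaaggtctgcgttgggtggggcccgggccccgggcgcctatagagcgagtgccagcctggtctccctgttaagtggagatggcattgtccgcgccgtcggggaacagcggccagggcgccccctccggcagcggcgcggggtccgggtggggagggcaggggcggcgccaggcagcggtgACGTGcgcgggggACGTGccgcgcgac

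These letters describe the window and not any binding, and the motif was not counted apart for members higher in the lung or in the heart. Several promoters of a gene were counted apart, and the shares were not corrected for base composition. On both strands GGGCGG, the GC box, is in 49.3% of the members' promoters and 32.7% of all, and TATAAA is in 1.45% and 12.4%.

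All 9 genes of lactate dehydrogenase and pyruvate entry were higher in the heart, by −2.18 to −4.29. Lactate dehydrogenase interconverts pyruvate and lactate, and Ldhb, the heart subunit, had 14.46, 14.59 and 14.75 in the hearts and 10.52, 10.77 and 11.66 in the lungs, a difference of −3.69 (SE 0.18, adjusted p = 9.98e-10). Ldha, the muscle subunit, differed less, with 13.82, 14.08 and 14.29 and 11.35, 11.78 and 12.48, or −2.24 (SE 0.15, adjusted p = 2.1e-08). Mpc1 and Mpc2, which together form the mitochondrial pyruvate carrier, differed by −2.80 (SE 0.22) and −2.62 (SE 0.18), and the pyruvate dehydrogenase genes Pdha1, Pdhb and Dlat by −3.38, −3.44 and −3.61 (SE 0.11, 0.11 and 0.13).

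The kinases that switch pyruvate dehydrogenase off marked the 2 ends of this group. Pdk2 had 12.04, 12.49 and 12.75 in the hearts and 6.79, 8.38 and 8.68 in the lungs, the largest difference at −4.29 (SE 0.24, adjusted p = 2.95e-09), and its lowest lung value was in WT replicate 3. Pdk1, a target of hypoxia signalling, had 12.35, 12.56 and 12.72 and 10.13, 10.33 and 10.58, the smallest difference at −2.18 (SE 0.11, adjusted p = 1.12e-09).

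In the citric acid cycle group all 10 genes were higher in the heart and no library of one organ reached the range of the other. Idh2, the NADP-dependent mitochondrial isocitrate dehydrogenase, had 15.49, 15.84 and 16.07 in the hearts and 11.13, 11.47 and 11.55 in the lungs, the largest difference at −4.39 (SE 0.13, adjusted p = 8.89e-12). Suclg1, a subunit of succinyl-CoA ligase, had 12.64, 12.72 and 12.95 and 9.84, 10.04 and 10.54, the smallest at −2.67 (SE 0.10, adjusted p = 1.16e-10). Between these lay Mdh1 and Mdh2, the cytosolic and mitochondrial malate dehydrogenases (−4.38 and −4.11), the citrate synthase Cs (−3.91), the oxoglutarate dehydrogenase Ogdh (−3.90), the subunits Idh3a and Idh3b (−3.84 and −3.74), the fumarase Fh1 (−3.55) and Sucla2 (−3.44), with SE of 0.10 to 0.18.

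Glycogen, the stored form of glucose, is broken down by phosphorylase and built by glycogen synthase, and all 3 of these genes were higher in the heart. Pygm, the muscle phosphorylase, had 14.66, 14.72 and 15.11 in the hearts and 8.30, 8.90 and 9.41 in the lungs, a difference of −5.93 (SE 0.14, adjusted p = 2.14e-12). Pygb, the brain form, had 14.46, 14.50 and 14.70 and 10.55, 10.75 and 10.98, with a difference of −3.78 (SE 0.09, adjusted p = 3.08e-12), and Gys1, the synthase of muscle and most tissues, had 11.33, 11.49 and 11.79 and 8.26, 8.79 and 8.89, with a difference of −2.89 (SE 0.14, adjusted p = 8.44e-10).

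Heart muscle markers were detected in every lung library, and their level stands beside the members with the largest differences. Lungs held 0.0412 to 12.2% of the heart's level of the 8 heart muscle markers (Myl2 the lowest, Myl7 the highest, with Myh6 at 0.763%, Actc1 at 0.935% and Ryr2 at 1.2%). The muscle isoenzymes Pgam2, Eno3, Pygm, Slc2a4 and Pfkm stood at 1.16%, 1.28%, 1.64%, 1.65% and 2.04% of their heart level in the lung. The part of heart muscle RNA in these lung values was not tested. Skeletal muscle markers were raised in lung WT replicate 2, and without that mouse Pgam2, Eno3 and Pygm differed by −6.46, −6.39 and −6.05 between the organs.

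**Figure D3:**
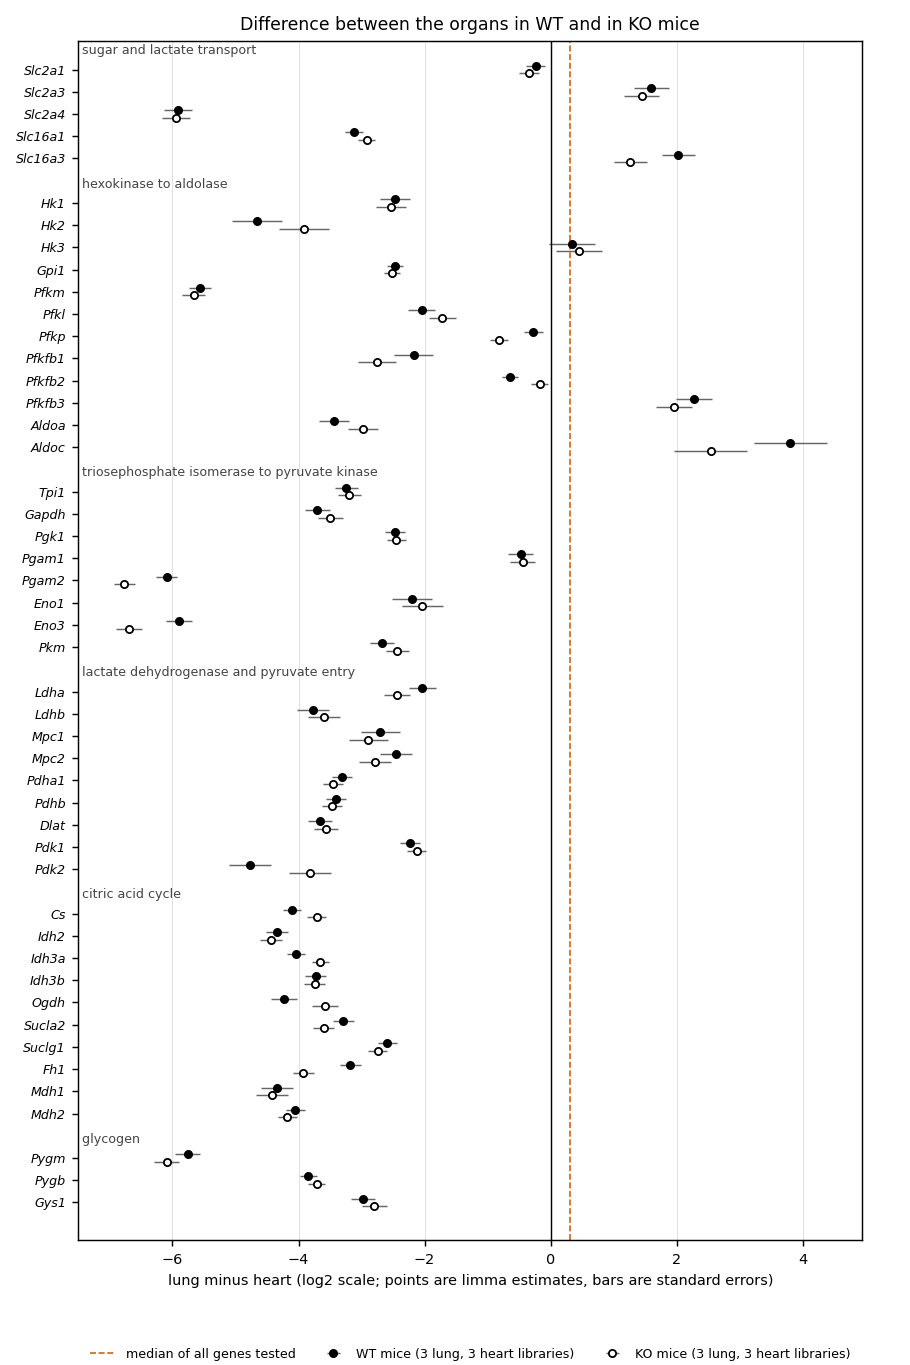
Lung minus heart difference (log2) of each member in WT mice (filled) and KO mice (open). Points are limma estimates over 3 lung and 3 heart libraries each, with standard errors from the same fit of all libraries. The dashed line is the median of all genes tested (0.31). In both genotypes 39 members lie to the left past the thresholds and the same 4 named genes lie to the right.

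The order of the organs was compared within WT and within KO mice, whose libraries come from different mice. Both comparisons were taken from the same fit of all libraries, with a shared filter and a shared estimate of the spread. Their calls are therefore not independent of each other. In WT mice 39 members were higher in the heart and 4 in the lung, where 49.4% of all genes were called (20.1% higher in the heart, 29.3% in the lung). In KO mice the counts were again 39 and 4, where 49.6% of all genes were called (20.9% and 28.7%). Slc2a3, Slc16a3, Pfkfb3 and Aldoc were the 4 higher in the lung in both, and Pfkfb2 was called in WT and Pfkp in KO mice beside the 38 called over all libraries. In WT mice 59.4% of the genes called over the whole table were higher in the lung, and 48.8% once each library was centred on its median.

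Levels can be compared between genes only per length, so the share of each isoenzyme in its family was taken from the scaled estimated counts per kilobase of transcript. By the mean over 6 libraries, the leading member differed between heart and lung in 9 of 11 families, and in 2, the aldolases and the monocarboxylate transporters, it was the same gene in both organs. Library by library, no lung had the leader of any heart in 6 of the 11 families. For all 26 family members the 6 heart shares and the 6 lung shares did not overlap. Shares within a family add up to 100% and are not independent, and no test was made of them. In families of 2 members the shares mirror each other, so both members overlap or neither does. These counts were not compared with other gene families, so whether they are unusual was not tested. By level, the organs did not overlap for 57.4% of all genes.

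Of the 3 glucose transporters among the members, 1 held nearly all of the family in the heart and none did in the lung. Slc2a4 took 97.2% ± 0.36 (SD, n = 6) of the family in the heart and 35.5% ± 5.05 in the lung, Slc2a1 2.41% ± 0.342 and 42.2% ± 3.86, and Slc2a3 0.361% ± 0.0933 and 22.2% ± 3.33. Slc2a1 led in 5 lungs and Slc2a4 in KO replicate 2. Hexokinase was evenly divided in the heart, with Hk2 at 50.4% ± 5.34 and Hk1 at 49.1% ± 5.16 and Hk1 the leader in 4 of 6 hearts, so the leader of this family differed between the organs by the mean only, while Hk1 led in every lung at 72.2% ± 5.72.

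Phosphofructokinase went from a single leading subunit to a near-even pair. Pfkm took 83% ± 2.29 in the heart and 20.2% ± 1.51 in the lung, where Pfkl stood at 39.3% ± 6.21 and Pfkp at 40.4% ± 6.11. Pfkp led in the 3 WT lungs and Pfkl in the 3 KO lungs, with Pfkp shares of 41.2%, 41.3% and 51.0% in WT and 37.4%, 32.5% and 39.3% in KO. In the gene table the genotypes did not differ past the threshold for either subunit. Of the bifunctional enzymes, Pfkfb2 took 61.4% ± 10.1 in the heart and Pfkfb3 58.3% ± 1.51 in the lung.

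In the later steps of glycolysis the switch was sharpest for phosphoglycerate mutase. Pgam2 took 90.9% ± 1.15 in the heart and Pgam1 86.1% ± 3.14 in the lung. Eno3 took 94.1% ± 1.07 of enolase in the heart, but in the lung Eno1 stood at 53.2% ± 14.9 with a range of 34.6 to 67.7%, and Eno3 still led in lung WT replicates 2 and 3. The lung order of the enolases also turned with the processing: with the deposited gene values over the longest coding transcript Eno3 led at 62.3%, and with near-identical copies summed Eno1 led at 73.8%. Ldhb took 66.7% ± 2.18 of lactate dehydrogenase in the heart and Ldha 58.3% ± 4.15 in the lung.

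Of the families that remain, the kinases of pyruvate dehydrogenase and the glycogen phosphorylases also changed their leader. Pdk2 took 64.8% ± 4.89 of the 2 pyruvate dehydrogenase kinases in the heart and Pdk1 69.1% ± 9.54 in the lung, and without a correction for length Pdk1 led in the heart as well, at 54.3%. With Pdk3 and Pdk4 counted in, Pdk2 took 44.8% ± 7.04 and Pdk4 29.9% ± 8.55 in the heart, and Pdk1 took 37.1% ± 4.16 in the lung. Pygm took 60.2% ± 1.32 of the 2 glycogen phosphorylases among the members in the heart and Pygb 74.1% ± 5.93 in the lung. With Pygl, the liver phosphorylase, counted in, Pygb took 38.6% ± 1.04 in the heart and 36.1% ± 2.39 in the lung, where Pygl led. The families without a switch kept their leader, at lower shares in the lung, Aldoa with 99.97% in the heart and 98.1% ± 0.749 in the lung and Slc16a1 with 99.2% ± 0.26 and 82.6% ± 2.84.

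**Figure D4:**
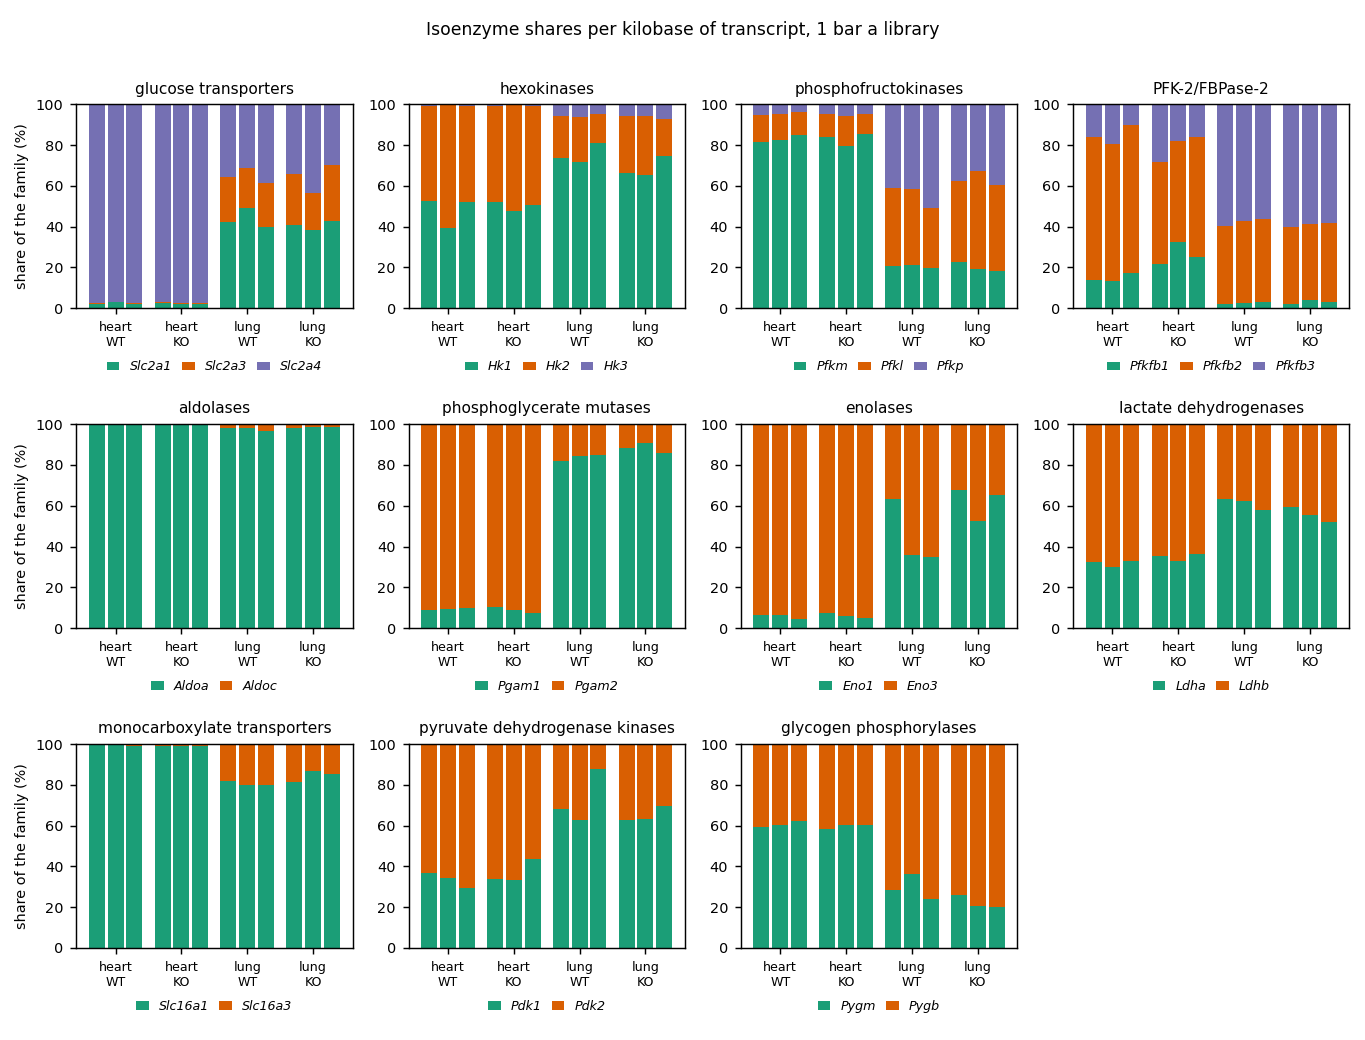
Share of each isoenzyme (percent, per kilobase of transcript) in 11 families, with 1 stacked bar for each library, 3 for each organ and genotype. In 6 families no lung bar has the leading gene of any heart bar. Some lung bars of the glucose transporters and enolases do, as do all 6 lung bars of the hexokinases. Aldoa and Slc16a1 fill most of every bar.

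Per kilobase, the most abundant members were Aldoa, Gapdh, Idh2, Eno3 and Ldhb in the heart and Aldoa, Gapdh, Ldha, Pkm and Ldhb in the lung. The level per kilobase of Mdh1 was left out, because its main transcript has no length in the annotation used here. Summed over the 20 genes from hexokinase to pyruvate kinase, the level was 165709 ± 15776 scaled counts per kilobase (SD, n = 6) in the heart and 17088 ± 2410 in the lung. This glycolysis sum includes the bifunctional enzymes Pfkfb1, Pfkfb2 and Pfkfb3, which act on its regulator. The other 9 citric acid cycle genes summed to 102406 ± 7153 in the heart and 6834 ± 544 in the lung. The ratio of the citric acid cycle sum to the glycolysis sum was 0.620 ± 0.0412 (0.587 to 0.698) in the heart and 0.408 ± 0.0792 (0.343 to 0.562) in the lung, so no lung reached the hearts' range.

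No member passed the thresholds between KO and WT mice in either organ. In the heart 0 of 47 were called (limma, Benjamini-Hochberg, smallest adjusted p = 0.383; 0.0850% of all genes were called), with 2 at an unadjusted p under 0.05 (7.46% of all genes), and limma-voom called 0 with 6. In the lung 0 of 47 were called (smallest adjusted p = 0.783; 0.0665% of all genes), with 5 at an unadjusted p under 0.05 (5.93% of all genes), and limma-voom called 0 with 2. WT and KO libraries did not overlap for 5 members in the heart and 8 in the lung, against 13.0% and 12.8% of all genes. In simulated data with 3 against 3 libraries, 67 of 100 genes with a change of 1 on the log2 scale were found in the heart and 41 of 100 in the lung. The same simulated data held another 100 genes with a change of 2, of which 98 were found in the heart and 87 in the lung. All changes were placed in genes with a mean level of at least 7. Slc2a3, Hk3, Slc16a3 and Aldoc lay below that in the heart, and Hk3, Pfkfb1 and Pgam2 in the lung. In the measured data only 13 genes were called in the heart and 11 in the lung. Recovery with so few changed genes was not tested.

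The members nearest to a call, picked after their values were seen, were a pair of bifunctional enzymes in the heart. Pfkfb2 had 10.73, 10.70 and 10.56 in WT and 10.06, 10.16 and 10.24 in KO hearts, a KO minus WT difference of −0.51 (SE 0.12, unadjusted p = 0.00217, adjusted p = 0.383). Pfkfb1, which the deposited gene table marks as not detected, had 7.10, 7.18 and 7.26 in WT and 7.58, 8.33 and 7.72 in KO hearts. The difference of Pfkfb1 was 0.69 (SE 0.22, unadjusted p = 0.0116, adjusted p = 0.579). KO lay below WT for the first and above it for the second, without overlap. Aldoc had the largest difference in the heart, with 3.83, 4.82 and 1.78 in WT and 5.12, 4.22 and 4.93 in KO, and those libraries overlapped. Its difference was 1.28 (SE 0.73, adjusted p = 0.740) and fell to 0.43 without WT replicate 3.

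In the lung the lowest unadjusted p-values belonged to Eno3 and Pgam2, 2 of the muscle isoenzymes, and to the fumarase Fh1. Eno3 had 9.14, 9.43 and 9.46 in WT and 8.71, 8.75 and 8.19 in KO lungs, a difference of −0.79 (SE 0.20, unadjusted p = 0.00379, adjusted p = 0.783). Pgam2 had 7.29, 7.06 and 7.23 and 6.74, 6.51 and 6.40, a difference of −0.64 (SE 0.21, unadjusted p = 0.0127, adjusted p = 0.806), and Fh1 had 10.39, 10.02 and 10.62 and 9.83, 9.78 and 9.45, a difference of −0.66 (SE 0.20, unadjusted p = 0.00883, adjusted p = 0.806). Every KO lung lay below every WT lung for these 3 genes. Of the 8 members without overlap in the lung, 6 were lower in KO and 2, Aldoa and Pkm, were higher. Other muscle isoenzymes overlapped between the genotypes, with WT and KO means of 7.67 and 7.67 for Slc2a4, 9.11 and 9.06 for Pfkm and 9.08 and 8.65 for Pygm. The summed level of the 8 heart muscle markers was 14.0 to 14.9 in WT and 13.6 to 14.1 in KO lungs and their KO minus WT differences ran from −1.33 (Myl2) to 0.03 (Actc1). The 6 skeletal muscle markers summed to 6.12 to 10.98 in WT and 5.88 to 6.17 in KO lungs, with Tnnt3 at −1.28 and Actn3 at −1.30, and without lung WT replicate 2 the differences were −0.75 for Eno3 and −0.71 for Pgam2. The part of either marker list in the result was not tested. Fh1 differed by −0.29 with limma-voom.

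Whether the organ difference itself depended on genotype was tested in 1 model of all 12 libraries. None of the 47 members passed (limma, Benjamini-Hochberg, smallest adjusted p = 0.533; 0.00566% of all genes passed), with 6 at an unadjusted p under 0.05 (7.88% of all genes), and limma-voom called 0 with 8. Fh1 had the lowest unadjusted p, with an organ difference lower by 0.75 in KO than in WT (−0.75, SE 0.24, adjusted p = 0.533).

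**Figure D5:**
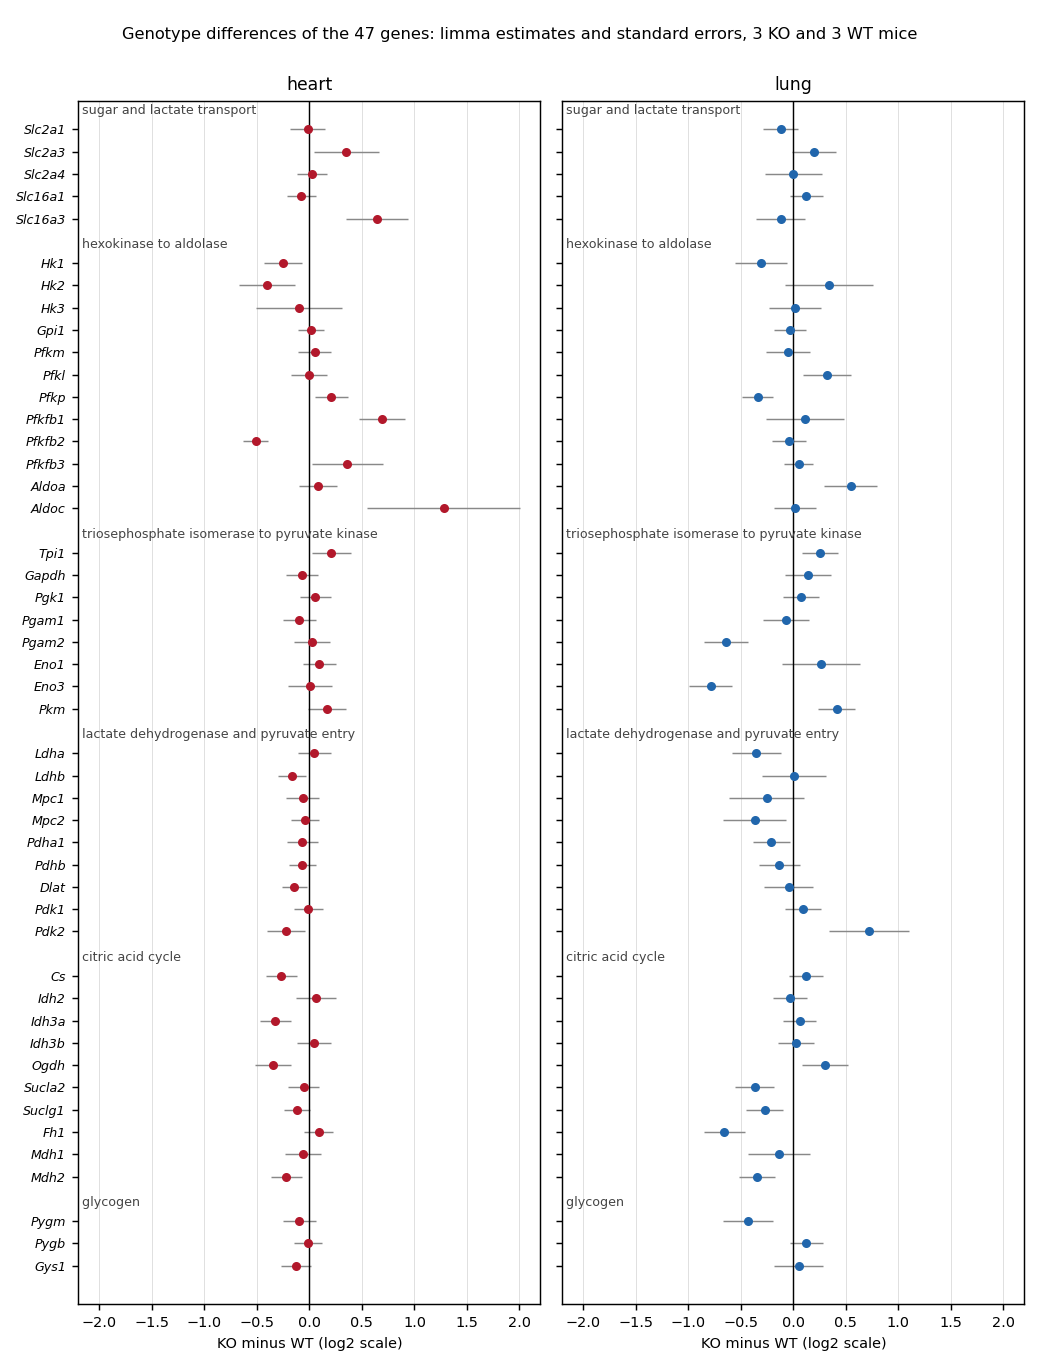
KO minus WT difference (log2) of each member in the heart (left) and lung (right), as limma estimates with standard errors over 3 KO and 3 WT mice. Most estimates lie within 0.5 of zero, and none passed the thresholds.

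Other genes of the same routes give the surroundings of the members. Of 51 listed, 50 are in the table and 44 were tested between the organs, of which 25 were higher in the heart and 8 in the lung past the thresholds, with a median difference of −1.77. Of all genes tested, 21.2% were higher in the heart and 30.1% in the lung past the same thresholds. Among those with the largest differences toward the heart were Me3, a mitochondrial malic enzyme, with a difference of −5.26 (SE 0.13, adjusted p = 1.99e-12), and Sdhb, a subunit of succinate dehydrogenase, with a difference of −4.04 (SE 0.15, adjusted p = 1.03e-10). All 4 succinate dehydrogenase genes were higher in the heart.

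Toward the lung the 5 largest were Hkdc1, Pfkfb4, Fbp1, Pdk3 and Pgm2. Hkdc1, a further hexokinase, was listed at 0 in all 6 hearts and at 6.46, 6.74 and 7.10 (lowest, median, highest) in the lungs. Pfkfb4, another bifunctional enzyme, had 6.26, 6.40 and 6.80 in the hearts and 9.68, 9.81 and 9.99 in the lungs, a difference of 3.35 (SE 0.12, adjusted p = 7.24e-11). Fbp1, a fructose-bisphosphatase of gluconeogenesis, differed by 2.87 (SE 0.53, adjusted p = 0.000276), but its organs overlapped, at 1.72 to 4.49 in the hearts and 4.30 to 6.37 in the lungs. Of its group means only that of KO lungs, 6.06, reached the threshold of 6. Pdk3, a further pyruvate dehydrogenase kinase, differed by 2.15 (SE 0.15, adjusted p = 2.4e-08), and the phosphoglucomutase Pgm2 by 1.43 (SE 0.15, adjusted p = 1.52e-06). With these genes added to the families, Pygl, the liver phosphorylase, took 51.1% ± 3.57 of glycogen phosphorylase in the lung, ahead of Pygb at 36.1% ± 2.39, and Pdk3 took 31.7% ± 2.18 of the lung kinases against 1.06% ± 0.329 in the heart. Slc2a12, a further glucose transporter, took 19.2% ± 2.27 in the lung, within 1 SD of Slc2a3 at 17.7% ± 2.42, with Slc2a1 at 33.7% ± 2.99 and Slc2a4 at 28.4% ± 4.43. Pfkfb4 took 28.7% ± 1 of the bifunctional enzymes in the lung, beside Pfkfb3 at 41.6% ± 1.23 and Pfkfb2 at 27.7% ± 1.15. Slc16a7, a further monocarboxylate transporter, took 27% ± 4.38 in the lung, above Slc16a3 at 12.3% ± 2.6, and Slc16a1 still led at 57.9% ± 2.94. None of the listed genes was called between genotypes in either organ.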

How the data were processed

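RNA of 12 libraries (heart and lung of 3 WT and 3 KO mice) had been prepared as stranded total RNA. The authors trimmed the reads and quantified them with Salmon against GENCODE vM33 transcripts of mm39. The deposited transcript table holds log2 of 1 plus the estimated count, and the deposited gene table holds log2 values that the authors had scaled between libraries by a method not given in the sources used here. The submitters' processing notes also name cutadapt, STAR and limma 3.42.2.

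Genes at 3.46 or more (a count of 10) in at least 3 libraries were fitted with limma 3.58.1 (R 4.3.3, with a mean-variance trend) over the whole table, with 1 term for each organ and genotype. Heart and lung were compared over all 12 libraries and within each genotype, genotypes within each organ, and the organ difference between genotypes. A call needed a Benjamini-Hochberg adjusted p under 0.05, a fold of at least 1.5 and a group mean of at least 6. In the gene table p-values rest on 3 mice in each group. For transcripts and shares, the estimated counts were scaled by 1 constant for each library and, for shares, divided by transcript length (GENCODE vM39, GRCm39). Exact permutation tests (scipy 1.17.1) were two-sided. Copies were searched with blastn 2.17.0 (at least 95% identity over 500 nucleotides). The fits were tested on simulated data.

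The mouse identifiers pair heart and lung of 1 mouse. Deviations from the group means correlated by −0.07 to 0.14 between the organs of a mouse over 17666 genes. The alternatives were 3 other scalings or fits, other filters, no trend, copies summed, a block for mouse, a fold of 2 and leaving out each replicate. Isoenzymes and Pkm, the extremes of each role group, near-identical copies and the 5 largest other pathway genes in each direction were to be named with their values, and some of the latter are not reported here. The members and lists were chosen with earlier results of these data known. Of the per-sample columns, 0 were left unused.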

Additional observations from a re-analysis of the deposited data

How the results depend on the processing

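For the lung minus heart differences of the 47 members, 657 values were recomputed, of which 0 turned direction or lost a call, 649 stayed on their side of the thresholds and 8 passed them where the value as reported did not (Pfkp, Pfkfb2 and Pgam1, higher in the heart). Heart-higher members numbered 38 to 41 and lung-higher members 3 to 4, the 3 under a filter in every library, which removes Aldoc. Leaving out 1 replicate gave 38 to 39 and 4, and within WT or KO mice 38 to 40. With the replicate block by mouse the counts were 38 and 4 and no call changed. The Pkm M1 difference ran from −4.48 to −4.36 without 1 replicate, M2 from −1.71 to −1.44, and the M1 share difference from −45.2 to −41.7 points. Other scalings moved the median of all genes from 0.31 to 0.09 to 0.10 and that of the members to −3.42 to −3.43. Isoenzyme leaders differed in 8 to 9 of 11 families under the alternatives run. No member was called between genotypes under any alternative, and 3 mice in each group limit what could be detected.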

Other observations

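Counted over members, the libraries at the edges of each organ were uneven. Lung KO replicate 3 had the lowest lung value for 22 of the 47 members, and heart WT replicate 2 the lowest heart value for 18. Lung WT replicate 3 had the highest lung value for 15, and heart WT replicate 3 the highest heart value for 17.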
